A study of Mus musculus with 10 samples.

Results

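The comparison described here follows doxycycline-induced mouse embryoid bodies from day 2 to day 2.5, while the level of Etv2 itself declines. Its members were taken from the sample labels alone: 2 libraries of day 2.5 were set against 2 libraries of day 2, which makes 4 of the 10 libraries in the series. Embryoid bodies are aggregates of embryonic stem cells that differentiate in culture, and all 10 libraries carry the label of the iHA-Etv2 line, in which doxycycline turns on a tagged copy of Etv2. The other 6 libraries are 2 untreated ones of day 2, 2 untreated ones of day 2.5 and 2 Flk1-positive induced ones of day 2.5. The 4 induced libraries and the 4 untreated ones are marked as not Flk1-positive, which does not tell whether these cells passed a sorter. No source used here gives the dose of doxycycline or the hour at which it was added. Nor does any say that replicate libraries came from separate cultures, so the p-values speak only for the scatter among these libraries, which can be technical in origin.

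Etv2 is an ETS-family transcription factor that is needed for the first blood and endothelial cells of the mouse embryo, and it is normally switched on for a short time. Its known targets include other regulators of both lineages, such as Tal1, Lmo2, Gata2, Fli1 and Erg, which form a network that keeps the endothelial and blood programmes running. The mesoderm in which this happens arises from the primitive streak under BMP, Wnt, Nodal and FGF signals, and cells that enter it leave pluripotency.

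Total counts were 21255952 and 21134667 in the day 2 induced libraries and 36068329 and 34650432 in the day 2.5 induced ones. All 10 libraries ranged from 18074070 to 36068329. Levels are given in CPM, the read count scaled to the TMM-adjusted total of its library, and a count of 0 allows a level of up to 0.0824 to 0.164 CPM, depending on the library. The induced day 2 replicates stood further apart than other pairs, at 31.8 for the mean chi-square of a gene (other pairs 3.29 to 9.52), and the difference between them rose with gene length (Spearman correlation 0.59 across genes). Across genes the change from day 2 to day 2.5 also rose with length (Spearman correlation 0.30 with doxycycline and 0.13 without). With length and GC trends removed, 3603 genes were higher and 3724 lower, and 3019 and 2974 of these were also called without that removal. Genes are not independent replicates in these correlations. The streak and pluripotency genes T, Mixl1, Eomes, Pou5f1 and Nanog were all present in the induced libraries, at levels given below. Their presence alone does not identify embryoid bodies.

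Of 14548 genes tested, 3337 (22.9%) rose and 3361 (23.1%) fell from day 2 to day 2.5 with doxycycline, at an adjusted p under 0.05 in edgeR's quasi-likelihood test. Among the rising genes 1152 changed at least 2-fold, 342 at least 4-fold and 55 at least 16-fold, while among the falling ones the numbers were 686, 168 and 20. Without doxycycline, 1342 genes (9.22%) rose and 1494 (10.3%) fell over the same time. By the interaction test, 1000 genes (6.87%) changed further upward with doxycycline than without it and 763 (5.24%) further downward. Single libraries moved the last 2 pairs of counts: without untreated day 2.5 replicate 2, 358 genes rose and 322 fell without doxycycline, against 414 and 481 without untreated day 2 replicate 1, 406 and 460 without untreated day 2 replicate 2, 2266 and 2536 without induced day 2 replicate 1 and 2261 and 2532 without induced day 2 replicate 2. The interaction counts were lowest without untreated day 2 replicate 1 (559 and 278) and highest without induced day 2 replicate 2 (2115 and 1954). The 6 percentages above are the background for the counts of named gene groups below.

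Etv2 stood at 507 and 403 CPM in the induced day 2 libraries and at 272 and 255 CPM in those of day 2.5. Every day 2.5 library lay below every day 2 library. The fall was -0.79 ± 0.11 on the log2 scale (SE, edgeR adjusted p = 4.05e-05). Over the 20 alternatives it ranged from -0.95 without induced day 2 replicate 2 to -0.57 with length and GC trends removed. Untreated embryoid bodies held 15.8 and 18.1 CPM at day 2 and 6.57 and 7.50 CPM at day 2.5, so the level with doxycycline stayed far above the level without it at both times. Reads of the induced copy and of the endogenous gene cannot be told apart in these counts. Etv2 also fell without doxycycline, by -1.26 ± 0.14 (edgeR adjusted p = 7.28e-05), and the 2 falls differed by 0.47 ± 0.18, which did not pass the test (edgeR adjusted p = 0.0998). Without induced day 2 replicate 1 that difference was 0.64 with an adjusted p of 0.00104, and over all 20 alternatives its adjusted p ranged from 0.000856 to 0.337.

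Kdr encodes Flk1, the VEGF receptor that marks blood and endothelial precursors. It stood at 99.6 and 151 CPM in induced day 2 libraries and at 405 and 433 CPM at day 2.5. All day 2.5 values lay above all day 2 values, and the rise was 1.74 ± 0.14 on the log2 scale (edgeR adjusted p = 2.89e-07). In untreated embryoid bodies Kdr went the other way, from 28.5 and 29.1 CPM to 7.05 and 7.42 CPM. Flk1-positive libraries held 1008 and 986 CPM.

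The rising genes with the largest changes were Myct1, Fli1, Erg, Tal2, Cdh5, Sox7, Gata2, Cbfa2t3, Tmtc2 and Sox6. Myct1, which encodes a membrane protein of endothelial cells, had 0 counts in both induced day 2 libraries and 918 counts over the day 2.5 pair, at 12.8 and 13.1 CPM. Against a floor of 3 counts over the day 2 pair it was at least 179-fold higher. Erg, an ETS factor of endothelium and blood stem cells, had 1 count at day 2 and 819 counts at day 2.5, a ratio of 480 with a 95% counting interval of 85.9 to 19000. Tal2, a relative of Tal1, had 2 counts at day 2 and 725 at day 2.5, a ratio of 213 with an interval of 58.6 to 1760. These intervals cover counting error only. These genes thus went from the edge of detection at day 2 to between 9.09 and 13.1 CPM in every induced library of day 2.5.

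The promoters of Myct1 and Tal2 are shown as those of leading rising genes with 0 and 2 counts at day 2 and 1 annotated start each in the table, and that of Tgm3 because it led the falling genes. Each sequence runs from 250 bases before to 50 after the start annotated by RefSeq on GRCm38.p6, 5′ to 3′ on the gene's strand, at chr10:5593478-5593777 (+) for Myct1, chr4:53779451-53779750 (+) for Tal2 and chr2:130012090-130012389 (+) for Tgm3. Capitals mark GGAAG or its reverse complement CTTCC, a longer form of the GGAA core that ETS factors recognise. Other GGAA or TTCC matches are not marked.
Myct1: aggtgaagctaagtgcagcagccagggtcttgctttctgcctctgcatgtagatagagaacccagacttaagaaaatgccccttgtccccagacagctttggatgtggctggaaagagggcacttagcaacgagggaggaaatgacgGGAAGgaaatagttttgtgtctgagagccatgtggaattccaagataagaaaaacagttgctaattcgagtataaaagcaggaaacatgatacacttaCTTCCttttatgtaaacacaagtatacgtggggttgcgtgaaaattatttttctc
Tal2: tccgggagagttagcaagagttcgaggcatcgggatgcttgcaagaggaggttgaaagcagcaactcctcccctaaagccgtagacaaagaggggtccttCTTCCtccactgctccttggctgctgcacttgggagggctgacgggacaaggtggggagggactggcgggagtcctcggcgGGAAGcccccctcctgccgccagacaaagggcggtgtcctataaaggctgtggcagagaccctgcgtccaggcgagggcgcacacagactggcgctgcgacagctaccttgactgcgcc
Tgm3: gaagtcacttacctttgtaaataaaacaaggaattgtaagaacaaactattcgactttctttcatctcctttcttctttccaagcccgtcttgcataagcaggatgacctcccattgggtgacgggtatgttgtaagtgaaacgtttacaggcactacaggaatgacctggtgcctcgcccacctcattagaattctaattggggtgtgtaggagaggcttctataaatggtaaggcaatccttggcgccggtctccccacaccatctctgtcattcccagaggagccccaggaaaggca
Myct1 and Tal2 each held 1 match of GGAAG on each strand. Tgm3 held none of this longer form, though its sequence contains unmarked GGAA. GGAAG was present, on either strand, in 71.4% of all 32851 promoters in the table. It was found in 10 of 16 promoters (62.5%) of the 7 leading rising genes that matched an entry, and in 3 of 7 promoters (42.9%) of 6 leading falling genes. Each annotated start counts as a promoter, so several of the 16 belong to Sox6 and Erg. By gene, Gata2 alone of the 7 rising genes held no GGAAG in any window. Among 17 of the 24 blood and endothelial regulators that rose, 17 of 26 promoters (65.4%) held it. The joint forkhead and ETS motif AACAGGAA occurred in 2.65% of all promoters and in 0 of the 16, 0 of the 7 and 1 of the 26 (3.85%). The E-box CAGATG was present in 3 of the 16, 1 of the 7 and 4 of the 26, against 17.2% of all promoters. The GATA motif AGATAA was present in 3 of the 16, 0 of the 7 and 3 of the 26, against 11.2% of all promoters. Motifs were searched on both strands and do not contain one another. Such a match describes letters in this window and shows no binding.

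Regulators of blood and endothelium rose as a group. Of 31 listed transcription factors and cofactors 29 passed the filter on low counts, and 24 of these rose (82.8%, against 22.9% of all genes tested) and 0 fell (against 23.1%). Their median log2 change was 2.22, or 1.91 with Foxc2, which had 0 counts at day 2, set at its bound, while the median of all genes tested was -0.0019. The members of the list were chosen with earlier results of these data known. Tal2, Erg and Gata1 had 2, 1 and 3 counts over the induced day 2 pair. They could be called only as rising, which limits what the 0 falls can show. The other 5 tested members, Foxc2, Gfi1b, Sfpi1, Ldb1 and Klf1, did not pass the test, and Gfi1 and Meis1 did not pass the filter.

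Among ETS factors, Fli1 stood at 0.378 and 0.0489 CPM in induced day 2 libraries and at 90.9 and 96.5 CPM at day 2.5. It was close to the detection limit in every library except the induced ones of day 2.5, Flk1-positive included. Its rise was 8.73 on the log2 scale (edgeR adjusted p = 1.9e-11). The size of this rise is uncertain, since the day 2 level lay near the detection limit. Ets1 was already present at 11.2 and 16.1 CPM and reached 77.7 and 76.1 CPM, a change of 2.49 ± 0.15 (edgeR adjusted p = 1.2e-08). Apart from Etv2 itself, Elk3 and Fev were ETS members with higher levels with doxycycline than without it at day 2. Elk3 stood at 8.66 and 9.66 CPM without doxycycline at day 2, at 48.4 and 58.2 CPM with it, and at 135 and 144 CPM at day 2.5 with it. Fev had 2 counts over the untreated day 2 pair, 3.45 and 4.15 CPM with doxycycline at day 2, and 13.3 and 10.8 CPM at day 2.5.

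The partners of the Tal1 complex fell into those that were already high with doxycycline at day 2 and those that were not. Tal1, the helix-loop-helix factor without which no blood forms, stood at 2.25 and 3.11 CPM untreated, 50.6 and 47.1 CPM induced at day 2, and 177 and 190 CPM induced at day 2.5. Lmo2, the bridging protein of that complex, stood at 8.75 and 8.24 CPM untreated, 54.7 and 56.0 CPM induced at day 2, and 310 and 306 CPM induced at day 2.5. Both genes rose further from a raised level, Tal1 by 1.91 ± 0.11 and Lmo2 by 2.48 ± 0.09 on the log2 scale (edgeR adjusted p = 6.2e-09 and 4.12e-11). Gata2, a zinc-finger factor of blood progenitors, instead stood at 5.95 and 3.71 CPM in induced day 2 libraries, near the untreated 3.72 and 3.27 CPM, and then at 176 and 184 CPM. Its rise was 5.21 ± 0.16 on the log2 scale (edgeR adjusted p = 1.9e-11). Cbfa2t3, the corepressor Eto2 of the same complex, went from 0.519 and 0.586 CPM to 18.5 and 20.7 CPM. The day 2 effect of doxycycline and the later change share the induced day 2 libraries, so their values stand side by side and no relation between them is drawn. For the day 2 effect, Tal1 and Lmo2 passed the test (log2 4.20 and 2.70, edgeR adjusted p = 1.01e-10 and 1.09e-10), and Gata2 and Cbfa2t3 did not (log2 0.46 and -0.06, edgeR adjusted p = 0.264 and 0.971).

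Further members of the complex and of the blood lineage covered a wide range of levels. Zfpm1, the Gata cofactor Fog1, rose from 14.8 and 14.7 CPM to 67.3 and 70.5 CPM. Lyl1, the closest relative of Tal1, rose from 0.661 and 0.684 CPM to 2.69 and 2.25 CPM. Gata1, the red-cell factor, had 3 counts at day 2 and 74 at day 2.5, a ratio of 14.5 with a 95% counting interval of 4.76 to 71.7. Runx1, which is needed for definitive blood stem cells, rose from 1.84 and 2.10 CPM to 5.69 and 5.86 CPM. Nfe2 rose from 0.425 and 0.0977 CPM to 1.54 and 1.18 CPM. Ldb1, the scaffold that links Lmo2 to DNA-bound factors, stood at 229 and 193 CPM and then at 210 and 199 CPM, so the groups overlapped (log2 -0.05 ± 0.09, edgeR adjusted p = 0.708). Klf1, another red-cell factor, lay between 0.0578 and 0.440 CPM in all 4 induced libraries. Myb, Ikzf1 and Ets2 rose by 0.38, 1.18 and 0.26 on the log2 scale, and each lost its call under at least 1 alternative. Without induced day 2.5 replicate 2 their values were 0.31, 0.91 and 0.23 (edgeR adjusted p = 0.151, 0.0683 and 0.206), and without induced day 2 replicate 1 Myb and Ets2 stood at 0.27 and 0.17 (edgeR adjusted p = 0.0983 and 0.216). Their largest adjusted p over the 20 alternatives was 0.151, 0.0683 and 0.216.

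The Sox factors of the endothelium rose too. Sox7 went from 0.850 and 1.91 CPM to 52.2 and 58.9 CPM, a change of 5.34 ± 0.27 on the log2 scale (edgeR adjusted p = 6.23e-09). Sox18 started from a raised 25.7 and 18.5 CPM and reached 138 and 131 CPM. Sox17 reached 9.83 and 11.8 CPM from 2.64 and 1.32 CPM. All 3 F-group members thus had day 2.5 values above every day 2 value. Sox17 shares 16.8% of its exon length with other annotated genes, and the strand setting of the counting is not given in the sources used here. Hhex, a homeobox factor of early endothelium and endoderm, rose from 22.8 and 25 CPM to 127 and 138 CPM.

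**Figure D1:**
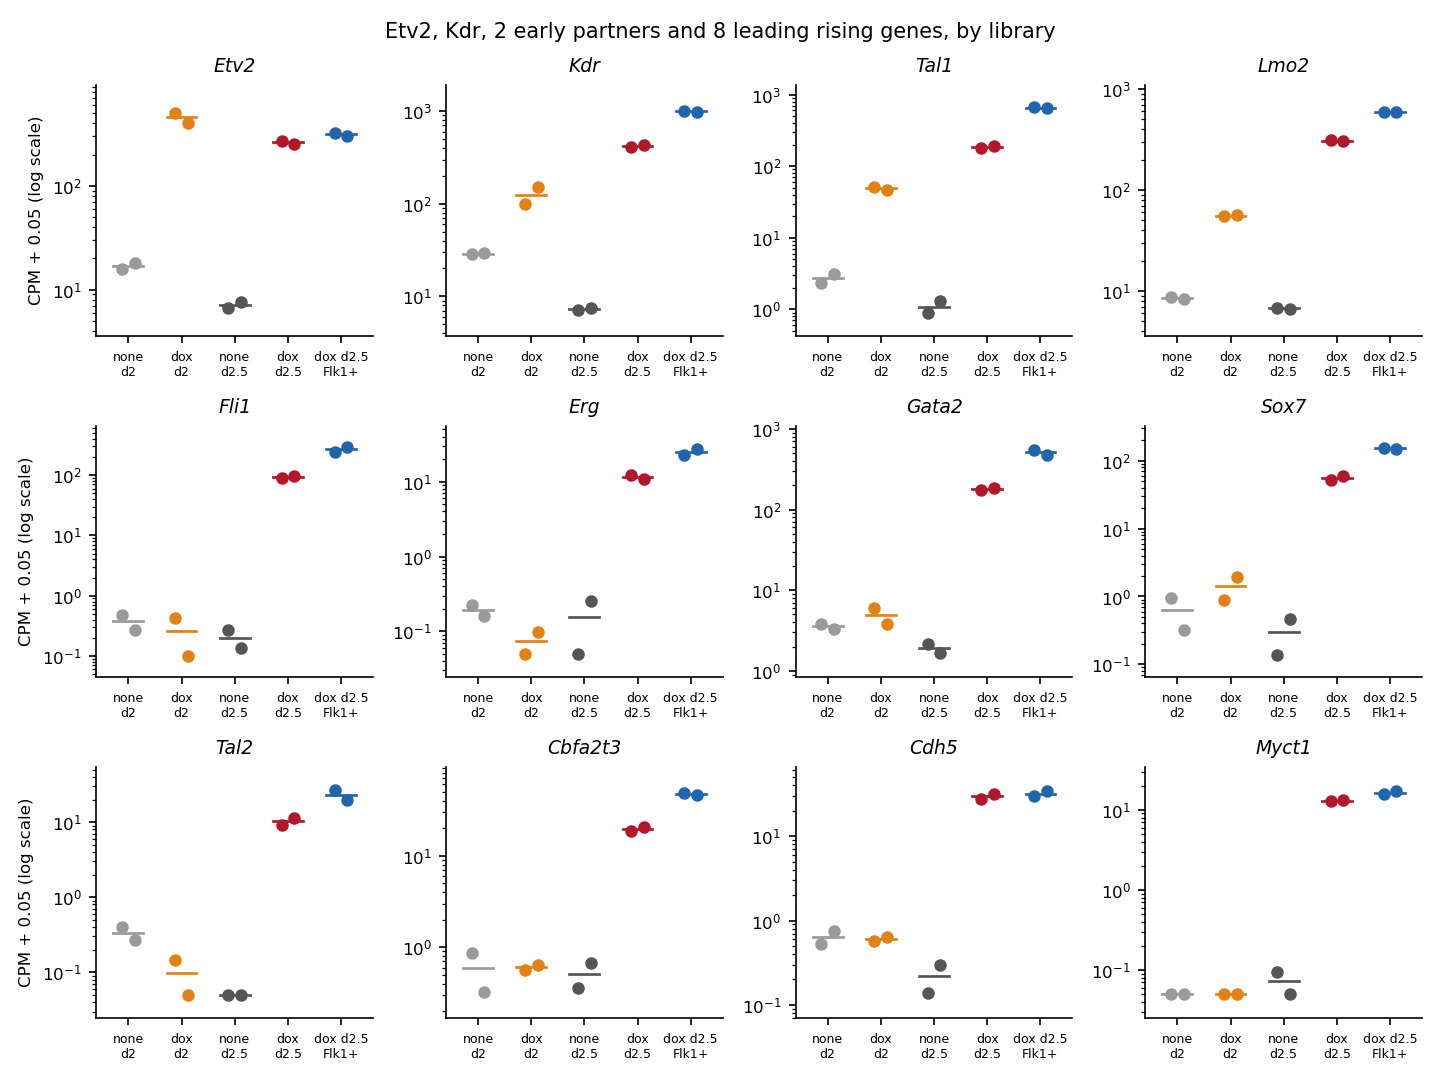
Level of Etv2, Kdr, Tal1, Lmo2 and 8 leading rising genes in each library. The vertical axis is CPM plus 0.05 on a log scale, the 5 columns of a panel are untreated day 2, induced day 2, untreated day 2.5, induced day 2.5 and induced Flk1-positive day 2.5, points are single libraries and the line is their mean. Etv2 lies lower in induced day 2.5 than in induced day 2 libraries, Tal1, Lmo2 and Kdr lie between the untreated and the day 2.5 level at induced day 2, and Fli1, Erg, Tal2 and Myct1 are at or near the detection limit until induced day 2.5.

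VEGF, Tie, apelin and PDGF genes rose more often than they fell. Of 21 tested members 13 rose (61.9%) and 3 fell (14.3%), with a median log2 change of 1.19. Several receptors were among the rising members. Flt4, the receptor for VEGF-C, rose from 52.2 and 62.2 CPM to 169 and 190 CPM, and Flt1, the decoy-like VEGF receptor, from 21.2 and 30.0 CPM to 58.1 and 58.8 CPM. Tek, the angiopoietin receptor Tie2, rose from 6.23 and 9.43 CPM to 23.9 and 28.2 CPM, and its partner Tie1 from 0.142 and 0.147 CPM to 1.13 and 1.33 CPM. Plxnd1, a semaphorin receptor that guides vessels, rose from 34.4 and 39.8 CPM to 237 and 253 CPM, by 2.72 ± 0.12 on the log2 scale (edgeR adjusted p = 8.49e-10). The coreceptors Nrp1 and Nrp2 rose by 1.68 ± 0.23 and 1.84 ± 0.12 (edgeR adjusted p = 5.89e-05 and 4.13e-08), and the phosphatase Ptprb, which restrains Tie2, by 2.92 ± 0.65 (edgeR adjusted p = 0.00212). Kdr, Tek, Nrp1 and Tie1 had lower day 2.5 than day 2 means without doxycycline. The fall there passed the test for Kdr, Tek and Nrp1 but not for Tie1 (edgeR adjusted p = 0.245), and the interaction passed for all 4.

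Apelin and its receptor moved in opposite directions. Aplnr, the receptor carried by early mesoderm and vessels, rose from 8.17 and 7.43 CPM to 25.9 and 26.0 CPM. Its ligand Apln fell from 27.0 and 30.7 CPM to 9.53 and 9.65 CPM, by -1.59 ± 0.16 on the log2 scale (edgeR adjusted p = 2.26e-06). In untreated embryoid bodies Apln rose from 74.9 and 73.4 CPM to 116 and 99.9 CPM. Pdgfra, a PDGF receptor of early mesoderm, fell from 13.2 and 16.1 CPM to 6.84 and 5.20 CPM, and its ligand gene Pdgfa fell by -1.21. Pdgfa shares 26.1% of its exon length with other annotated genes. The VEGF ligand genes Vegfa and Vegfb rose by 0.78 and 0.65 on the log2 scale.

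Genes of endothelial junctions, surface and signalling formed the other large rising group. Of 41 listed genes 37 were tested, of which 27 rose (73%) and 1 fell (2.7%), and their median log2 change was 1.54. Stab1 and Gja5 had 2 counts each over the induced day 2 pair, so neither could be called as falling. Cdh5, the cadherin of endothelial junctions, stood at 0.519 and 0.586 CPM at day 2 and at 27.7 and 31.2 CPM at day 2.5. The rise was 5.72 ± 0.25 on the log2 scale (edgeR adjusted p = 5.7e-10), and the day 2 values lay between the 0.476 and 0.709 CPM of untreated embryoid bodies. Gpr116, an adhesion receptor of vessels, rose from 0.802 and 1.56 CPM to 26.0 and 26.8 CPM. Esam, a junction molecule, rose from 2.22 and 2.10 CPM to 12.0 and 11.4 CPM, and Egfl7, a secreted protein of endothelial cells, from 35.9 and 29.8 CPM to 107 and 108 CPM.

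The endothelial genes Cldn5, S1pr1, Pcdh12 and Rhoj already stood higher with doxycycline than without it at day 2. Cldn5, the tight-junction claudin of vessels, stood at 0.433 and 0.982 CPM untreated, at 9.06 and 6.45 CPM induced at day 2 and at 41.9 and 41.2 CPM induced at day 2.5. S1pr1, a lipid receptor that stabilises vessels, stood at 0.390 and 0.273, then 3.49 and 5.33, then 32.5 and 30.6 CPM. Pcdh12 stood at 0.563 and 0.382 CPM untreated, 14.2 and 19.1 CPM induced at day 2 and 33.2 and 33.0 CPM induced at day 2.5, and Rhoj, a GTPase of endothelial cells, had 1.04 and 0.928, then 12.9 and 11.4, then 24.9 and 26.3 CPM. Mmp9, a matrix protease of the study's qPCR panel, stood at 18.0 and 20.1 CPM at day 2 and 23.3 and 19.2 CPM at day 2.5, so the groups overlapped (log2 0.15 ± 0.20, edgeR adjusted p = 0.557).

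Not every defining endothelial marker followed. Pecam1, the surface protein CD31, stood at 15.8 and 11.3 CPM in induced day 2 libraries and at 7.06 and 9.65 CPM at day 2.5, a fall of -0.70 ± 0.22 on the log2 scale (edgeR adjusted p = 0.0152). It was the 1 member of the endothelial list that fell, and the number of falling members was 0 with only the compared groups. The call was also lost on leaving out induced day 2 replicate 1 or induced day 2.5 replicate 1. Pecam1 also fell without doxycycline, from 14.8 and 17.5 CPM to 6.18 and 4.48 CPM. Emcn, a sialomucin of capillaries, had 0 counts in all 4 day 2 libraries and 14 and 7 counts in the induced ones of day 2.5, too few to pass the filter. In bulk samples, more cells of a type and more RNA per cell cannot be told apart, which applies to every rise and fall given here.

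Blood cell genes were detected only in part. Of 35 listed genes 17 passed the filter, of which 9 rose (52.9%) and 3 fell (17.6%), with a median log2 change of 0.68. The defining markers of differentiated blood cells stayed at the edge of detection, with 0 counts of Hba-x, Hbb-bh1, Hba-a1 and Ptprc in both induced day 2.5 libraries, which allows up to 0.0866 CPM. Among the rising members, Lcp1, which encodes an actin-bundling protein, went from 14.4 and 17.5 CPM to 95.7 and 107 CPM, by 2.67 ± 0.15 on the log2 scale (edgeR adjusted p = 6.43e-09). Rcsd1, a regulator of actin capping, rose from 2.64 and 1.95 CPM to 16.4 and 19.6 CPM, and Arhgdib from 5.43 and 6.16 CPM to 29.0 and 33.1 CPM. Itga2b, the integrin CD41 of the first blood progenitors, rose from 0.708 and 0.586 CPM to 1.92 and 1.5 CPM. Inpp5d, a lipid phosphatase, fell from 44.4 and 40.8 CPM to 14.4 and 14.3 CPM, and it also fell without doxycycline (log2 -1.57 ± 0.13 with and -1.63 ± 0.13 without, interaction 0.06, edgeR adjusted p = 0.877). The number of falling blood genes was 1 with only the compared groups. It also moved on leaving out induced day 2 replicate 1 or induced day 2.5 replicate 1.

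Notch genes rose in 7 of 15 tested cases (46.7%) and fell in 2 (13.3%). Notch1 rose from 61.3 and 72.6 CPM to 110 and 114 CPM, Notch4, a receptor of endothelium, from 5.15 and 3.57 CPM to 12.9 and 10.3 CPM, and the target Hey1 from 7.98 and 9.68 CPM to 24.0 and 24.9 CPM. The ligand Dll3, which acts in the forming somites, fell from 18.0 and 15.9 CPM to 7.00 and 5.78 CPM, and the modifier Lfng from 14.2 and 12.1 CPM to 4.53 and 5.60 CPM. With length and GC trends removed, 5 Notch genes fell.

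BMP, Smad and Id genes rose in 13 of 22 tested cases (59.1%) and fell in 4 (18.2%). Smad5, a transducer of BMP signals, rose from 71.5 and 96.4 CPM to 188 and 191 CPM. Id4 and the decoy receptor Bambi rose by 1.64 ± 0.21 and 0.80 ± 0.13 on the log2 scale (edgeR adjusted p = 2.34e-05 and 0.000188). Acvrl1, the BMP9 receptor Alk1 of endothelium, rose from 1.42 and 1.27 CPM to 3.74 and 4.27 CPM. Id1, a direct BMP target, rose from 70.6 and 41.6 CPM to 84.2 and 92.5 CPM and fell without doxycycline from 73.8 and 81.9 CPM to 40.5 and 47.2 CPM. With only the compared groups 8 members rose and 1 fell, and with length and GC trends removed 2 fell. The number of rising members also moved on leaving out induced day 2.5 replicate 2. That of falling members moved on leaving out induced day 2 replicate 1 or either induced day 2.5 replicate.

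The falling genes with the largest changes were Tgm3, Etv4, Nefl, Kcnh3, Fzd9, Wnt5a, Gbp2, Bmper, Gbp3 and Nr0b1. Tgm3, a transglutaminase of epithelia, fell from 6.23 and 6.84 CPM to 0.412 and 0.231 CPM, by -4.32 ± 0.37 on the log2 scale (edgeR adjusted p = 4.1e-07). Nefl, a neurofilament subunit, fell from 246 and 193 CPM to 31.9 and 27.9 CPM, by -2.88 ± 0.12 (edgeR adjusted p = 2.87e-10). All day 2.5 values lay below all day 2 values for these 10 genes, which the rule for naming them required. Nefl shares 32.8% of its exon length with other annotated genes. Both of these genes also fell without doxycycline, by -0.96 and -0.73, and the interaction of -3.36 and -2.14 passed the test. Bmper, a secreted BMP modulator, fell from 7.18 and 6.16 CPM to 1.54 and 0.809 CPM. The interferon-inducible GTPase gene Gbp2 fell from 17.3 and 13.8 CPM to 2.61 and 2.89 CPM, and its relative Gbp3 from 4.63 and 5.67 CPM to 0.302 and 1.53 CPM.

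FGF and ERK feedback genes fell as a group. Of 21 tested members 13 fell (61.9%, against 23.1% of all genes tested) and 5 rose (23.8%), with a median log2 change of -0.64. Etv4, Etv5 and Etv1 are ETS factors whose transcription is a common readout of FGF signalling. Etv4 stood at 94.3 and 88.2 CPM in induced day 2 libraries and at 8.49 and 9.88 CPM at day 2.5, a change of -3.31 ± 0.11 on the log2 scale (edgeR adjusted p = 3.97e-11). In the other groups Etv4 was at 88.6 and 91.5 CPM (untreated, day 2) and 82.4 and 81.8 CPM (untreated, day 2.5), so induced day 2.5 libraries alone among these 4 groups were low. Etv5 fell from 358 and 360 CPM to 106 and 107 CPM, and Etv1 by -1.53.

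Some feedback inhibitors of the same pathway were higher with doxycycline at day 2 than without it. Spry4, Dusp6, Dusp4 and Spry2 passed the test there (log2 0.89, 1.44, 0.95 and 0.57, edgeR adjusted p = 0.000216, 4.93e-08, 1.34e-05 and 0.000756), and Spry1, Spred1, Spred2 and Il17rd did not (log2 0.28, -0.02, 0.06 and 0.42, edgeR adjusted p = 0.19, 0.962, 0.891 and 0.0815). From day 2 to day 2.5 Spry2 fell by -1.11 and Spred1 by -0.34 on the log2 scale, Spry1 rose by 0.49, and Spred2 and Il17rd did not pass the test (log2 -0.25 and -0.19, edgeR adjusted p = 0.146 and 0.228). Spry1 shares 24.4% of its exon length with other annotated genes. Spry4, an inhibitor of receptor signalling, stood at 61.6 and 51.0 CPM untreated at day 2, at 102 and 107 CPM induced at day 2 and at 21.6 and 19.0 CPM induced at day 2.5. Its fall was -2.36 ± 0.12 on the log2 scale (edgeR adjusted p = 3.37e-09). Dusp6, the phosphatase of ERK, stood at 246 and 234 CPM, then 676 and 630 CPM, then 297 and 277 CPM, a fall of -1.18 ± 0.09 (edgeR adjusted p = 8.12e-08). Dusp4 had the same shape, with 66.8 and 61.4, then 120 and 128, then 63.8 and 65.7 CPM. For Spry4 the final level lay below the untreated day 2.5 level of 57.9 and 50.1 CPM, while for Dusp4 it lay above the 41.9 and 43.4 CPM there.

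FGF ligands and receptors moved in both directions. Fgf8 and Fgf17, ligands of the primitive streak, fell by -0.64 ± 0.16 and -1.70 ± 0.24 on the log2 scale (edgeR adjusted p = 0.00498 and 5.9e-05), and both rose without doxycycline. Fgf4 and Fgf5, ligands of the pluripotent epiblast, fell by -1.36 and -0.25. Fgf3 rose instead, from 4.58 and 1.95 CPM to 9.39 and 12.6 CPM, as did the receptor Fgfr4, from 4.96 and 4.10 CPM to 11.5 and 8.98 CPM. The number of rising members was 3 without induced day 2.5 replicate 2.

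**Figure D2:**
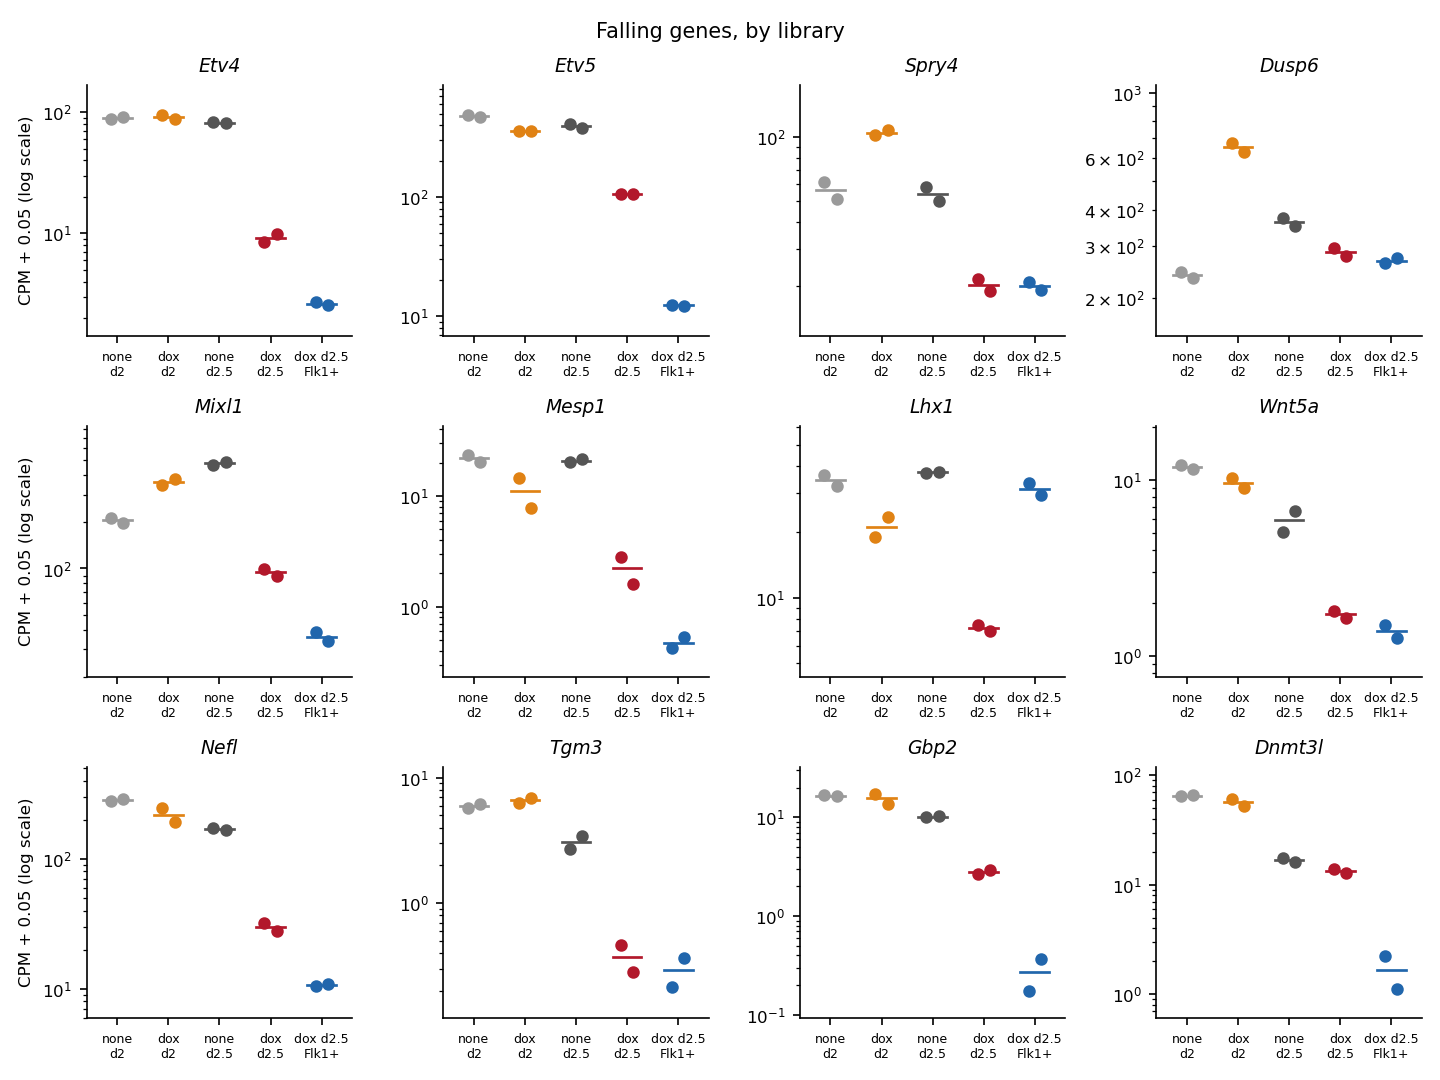
Level of 12 falling genes in each library, with the axes, columns, points and mean lines of the plot of rising genes. Etv4, Etv5, Mesp1 and Lhx1 are lower in induced day 2.5 libraries than in either untreated group, Spry4, Dusp6 and Mixl1 peak in an induced day 2 or untreated day 2.5 group, and Dnmt3l is similarly low at day 2.5 with and without doxycycline.

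Primitive streak transcription factors took different courses with and without doxycycline. Of 18 tested members 8 fell (44.4%) and 1, Hhex, rose (5.56%) with doxycycline, with a median log2 change of -0.55, while 8 rose and 0 fell without it. The interaction passed the test in the downward direction for 10 of the 18 members (against 5.24% of all genes tested) and in the upward direction for Hhex. Mixl1, a homeobox factor of the streak, stood at 347 and 376 CPM in induced day 2 libraries and at 99.5 and 89.5 CPM at day 2.5, while untreated embryoid bodies went from 213 and 197 CPM to 469 and 490 CPM. The induced fall was -1.94 ± 0.10, the untreated rise 1.22 ± 0.10 and their difference -3.16 on the log2 scale (edgeR adjusted p = 2.3e-09, 3.75e-06 and 2.26e-09). Without induced day 2.5 replicate 2 the number of falling members was 5, and without induced day 2 replicate 2 the number of rising ones was 2.

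Eomes, T and Sp5 differed from Mixl1 in that their induced levels at day 2.5 lay close to those of day 2. Eomes, the T-box factor of the anterior streak, stood at 357 and 430 CPM and then at 336 and 333 CPM (log2 -0.23 ± 0.10, edgeR adjusted p = 0.0806), against a rise from 563 and 549 CPM to 1204 and 1455 CPM without doxycycline. T, or Brachyury, stood at 416 and 430 CPM and then at 368 and 356 CPM, a fall of -0.23 ± 0.08 (edgeR adjusted p = 0.0381), against a rise from 388 and 392 CPM to 791 and 878 CPM without it. Sp5, a Wnt target, stood at 53 and 51.2 CPM and then at 53.1 and 50.2 CPM, against a rise from 93.1 and 98.4 CPM to 179 and 223 CPM. The interaction of these 3 genes was -1.49, -1.32 and -1.08 on the log2 scale (edgeR adjusted p = 9.3e-06, 3.16e-06 and 0.00105).

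Mesp1, the factor of the earliest cardiac mesoderm, fell from 14.4 and 7.72 CPM to 2.77 and 1.56 CPM, by -2.35 ± 0.29 on the log2 scale (edgeR adjusted p = 1.6e-05). Lhx1 fell from 18.8 and 23.2 CPM to 7.44 and 6.99 CPM, Evx1, a factor of the posterior streak, from 55.3 and 40.1 CPM to 24.7 and 20.6 CPM, and Gsc, the organiser gene goosecoid, from 11.9 and 7.62 CPM to 5.99 and 4.36 CPM. Without doxycycline Lhx1 stood at 36.3 and 32.3 CPM and then at 37.2 and 37.5 CPM (log2 0.12 ± 0.13, edgeR adjusted p = 0.564), and Mesp1 at 23.6 and 20.2 CPM and then at 20.0 and 21.6 CPM (log2 -0.07 ± 0.25, edgeR adjusted p = 0.867). Msgn1, a factor of presomitic mesoderm, had 10 counts at day 2 and 1 at day 2.5, a ratio of 0.0586 with a 95% counting interval of 0.00135 to 0.412, and it lost its call in 15 of 17 alternatives that gave it a value.

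Nodal genes fell in 7 of 12 tested cases (58.3%) and rose in 2 (16.7%). Nodal itself, the ligand that patterns the streak, fell from 95.4 and 80.2 CPM to 47.4 and 47.0 CPM, by -0.89 ± 0.10 on the log2 scale (edgeR adjusted p = 5.45e-06). Tdgf1, its coreceptor Cripto, fell from 366 and 340 CPM to 186 and 181 CPM, and Fst, the inhibitor follistatin, from 170 and 171 CPM to 82.1 and 74.8 CPM. Both of these rose without doxycycline, to 621 and 692 CPM for Tdgf1 and to 422 and 417 CPM for Fst. Lefty2 and Gdf3 fell by -1.10 and -1.49.

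Wnt genes were split evenly, with 8 of 20 rising and 8 falling (40% each) and a median log2 change of 0.01, but by role the sets differed. The ligands that changed all fell: Wnt5a from 10.2 and 8.89 CPM to 1.76 and 1.59 CPM, Wnt8a from 32.9 and 29.2 CPM to 17.4 and 16.8 CPM, and Wnt3, Wnt5b and Wnt11 by -0.50, -1.29 and -1.5 on the log2 scale. Frzb, a secreted Wnt antagonist, fell from 15.2 and 19.4 CPM to 4.59 and 2.92 CPM. Axin2, a feedback target, rose from 147 and 160 CPM to 248 and 233 CPM, and Lgr5, a target and R-spondin receptor, from 1.98 and 3.08 CPM to 10.2 and 11.1 CPM. Axin2 also rose without doxycycline (log2 0.65 with and 0.80 without, interaction -0.15, edgeR adjusted p = 0.468). The sorting of members by role was made after their values were seen.

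**Figure D3:**
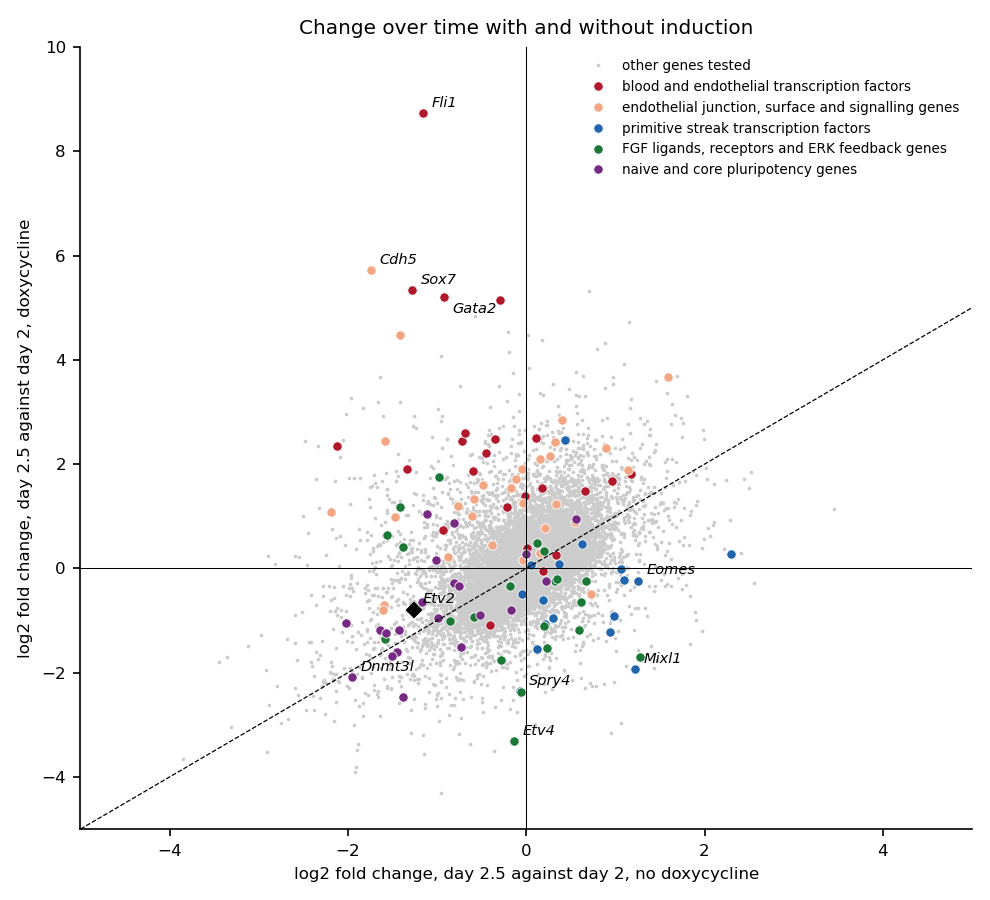
Change from day 2 to day 2.5 without doxycycline (horizontal axis, log2 fold change) against the same change with doxycycline (vertical axis), for the 14188 tested genes with more than 3 counts in each of the 4 groups. Each point is 1 gene, colours mark 5 gene lists, the diamond is Etv2 and the dashed line marks equal change. Fli1, Cdh5, Sox7 and Gata2 lie above 5 on the vertical axis and left of 0, Mixl1 lies below 0 and right of 0, and Dnmt3l lies near the dashed line.

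Pluripotency genes fell in both courses. Of 21 tested naive and core members 13 fell (61.9%) and 4 rose (19%) with doxycycline, and 15 fell and 1 rose without it, with median log2 changes of -0.89 and -1.01. Dnmt3l, a cofactor of DNA methylation, fell from 61.4 and 52.0 CPM to 14.0 and 12.7 CPM with doxycycline and from 64.8 and 65.5 CPM to 17.6 and 16 CPM without it (interaction -0.13, edgeR adjusted p = 0.765). Zfp42, or Rex1, fell from 40.5 and 32.3 CPM to 11.6 and 12.4 CPM, and Pou5f1, or Oct4, from 1570 and 1113 CPM to 736 and 713 CPM. The 2 courses did differ for Sox2, which fell from 127 and 115 CPM to 45.2 and 39.8 CPM with doxycycline and from 140 and 142 CPM to 88.8 and 80.6 CPM without it (interaction -0.78, edgeR adjusted p = 0.00302).

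Nanog had its difference at day 2, with 213 and 220 CPM untreated against 88.1 and 85.9 CPM induced, and stood at 73.5 and 73.4 CPM at induced day 2.5 (log2 -0.24 ± 0.11 from day 2, edgeR adjusted p = 0.0941). Klf4 and Tbx3 went against the group: Klf4 rose from 3.87 and 3.27 CPM to 6.12 and 8.69 CPM and Tbx3 from 23.5 and 22.3 CPM to 44.1 and 39.8 CPM, whereas both fell without doxycycline. The number of rising naive members was 2 without induced day 2.5 replicate 2. Of 14 tested formative epiblast genes 7 fell (50%) and 3 rose (21.4%), and 6 rose without induced day 2 replicate 2. Dnmt3b, a DNA methyltransferase of the epiblast, fell from 1867 and 2064 CPM to 1152 and 1152 CPM, and Pou3f1, or Oct6, from 109 and 80.5 CPM to 26.7 and 27.1 CPM.

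Markers of other lineages were mixed. Among cardiac and lateral mesoderm markers 2 of 12 tested rose (16.7%, against 22.9% of all genes tested) and 4 fell (33.3%, against 23.1%). Without induced day 2 replicate 1, 4 rose. Tbx20, a T-box factor of heart and endocardium, rose from 4.86 and 7.48 CPM to 36.2 and 37.1 CPM, by 2.57 ± 0.18 on the log2 scale (edgeR adjusted p = 5.94e-08), while Actc1, cardiac actin, fell from 13.3 and 8.31 CPM to 2.06 and 2.80 CPM and Gata4 from 21.1 and 21.0 CPM to 9.06 and 13.7 CPM. Among paraxial mesoderm markers 4 of 7 tested fell (57.1%) and 0 rose, with a median log2 change of -1.01. Among neuroectoderm markers 3 of 7 tested rose (42.9%) and 0 fell. Among the rising ones were Sox3, from 11 and 8.06 CPM to 20.4 and 18.4 CPM, and Tubb3, from 34.1 and 27.7 CPM to 50.8 and 49.1 CPM. Nes rose by 0.23 and stood at 0.0027 with length and GC trends removed (edgeR adjusted p = 0.979).

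Endoderm markers rose in 9 of 16 tested cases (56.2%) and fell in 2 (12.5%). Most rising members are not confined to endoderm: they were the basement membrane collagens Col4a1 and Col4a2, laminin Lama1, the lipoprotein gene Apoe, the endocytic adaptor Dab2 and the factors Sox17, Sox9, Gata6 and Foxa1. Col4a2 rose from 38.7 and 36.1 CPM to 90.7 and 86.6 CPM, and Apoe from 505 and 408 CPM to 1541 and 1471 CPM. Sox9, a factor of cartilage and many progenitors, rose from 4.67 and 5.72 CPM to 34.1 and 36.3 CPM. Foxa2, a defining endoderm factor, stood at a mean of 7.61 CPM at day 2 and 9.25 CPM at day 2.5, while it was at 26.7 CPM in untreated day 2.5 libraries. Trh fell from 444 and 379 CPM to 160 and 171 CPM and rose without doxycycline.

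Fibroblast and smooth muscle markers fell in 5 of 11 tested cases (45.5%) and rose in 2 (18.2%), with 1 rising with only the compared groups. The number of falling ones moved on leaving out induced day 2 replicate 2, and that of rising ones on leaving out induced day 2.5 replicate 2. Acta2, smooth muscle actin, fell from 21.7 and 12.6 CPM to 5.47 and 4.94 CPM and also fell without doxycycline (log2 -1.72 ± 0.23 with and -1.74 ± 0.24 without). Tagln fell from 95 and 64.7 CPM to 30.7 and 30.9 CPM, though 67.9% of its exon length overlaps other annotated genes. Col1a1 was at 4.11 CPM at day 2 and 1.31 CPM at day 2.5 on average. Of 17 epithelial and mesenchymal genes 5 rose (29.4%) and 5 fell (29.4%), near the 22.9% and 23.1% of all genes tested. With only the compared groups 3 rose. The number of rising ones also moved on leaving out induced day 2.5 replicate 1. Zeb2, a repressor of epithelial genes, rose from 7.51 and 11.5 CPM to 48.9 and 49.5 CPM and Fn1, fibronectin, from 641 and 913 CPM to 1570 and 1614 CPM, while Cdh1, E-cadherin, stood at 735 and 896 CPM and then at 909 and 938 CPM (log2 0.18 ± 0.09, edgeR adjusted p = 0.125).

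Cell cycle, p53 and stress response genes held more falls than rises. Of 27 cell cycle genes 12 fell (44.4%) and 3 rose (11.1%). Ccne1, a cyclin of entry into S phase, fell from 330 and 331 CPM to 181 and 174 CPM, and Ccnd1 from 312 and 313 CPM to 186 and 190 CPM, while the cell cycle inhibitor Cdkn1b rose from 46.3 and 45.5 CPM to 120 and 110 CPM. Ccnd1 shares 23.4% of its exon length with other annotated genes. Of 15 p53 targets 8 fell (53.3%) and 2 rose (13.3%) with doxycycline and 9 fell and 1 rose without it, and Mdm2 fell by -0.62 in both courses. The number of rising p53 targets was 1 with only the compared groups. It also moved on leaving out either induced day 2.5 library, either untreated day 2 library or Flk1-positive replicate 1. Of 16 genes of the integrated stress response and serine synthesis 7 fell (43.8%), among them Cth, from 35.4 and 29.8 CPM to 11.8 and 11.1 CPM, and Psat1, from 293 and 249 CPM to 146 and 142 CPM, and 1, Asns, rose (6.25%). There 2 rose without induced day 2 replicate 1 and 3 without induced day 2 replicate 2.

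Of 22 hypoxia and glycolysis genes 7 rose (31.8%, against 22.9% of all genes tested) and 8 fell (36.4%, against 23.1%). Pdk1, which diverts pyruvate from mitochondria, rose from 162 and 179 CPM to 341 and 349 CPM, and Ldha, lactate dehydrogenase, fell from 1423 and 1208 CPM to 610 and 651 CPM. Among 18 immediate early genes, which can also mark tissue dissociation, 5 rose (27.8%) and 5 fell (27.8%), near the 22.9% and 23.1% of all genes tested. With only the compared groups 2 fell. The number of falling ones also moved on leaving out either induced day 2.5 replicate. Jun rose from 29.8 and 24.9 CPM to 80.2 and 89.0 CPM, Egr2 from 0.661 and 0.782 CPM to 3.93 and 4.04 CPM, and Fos fell by -0.98. Near-identical copies exist for several glycolytic genes, among them Pgk1 and Eno1, and their values are therefore uncertain. The 14 tested genes of the study's own qPCR panel, which the study chose and which are no independent evidence of direction, held 6 rises (42.9%) and 3 falls (21.4%).

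**Figure D4:**
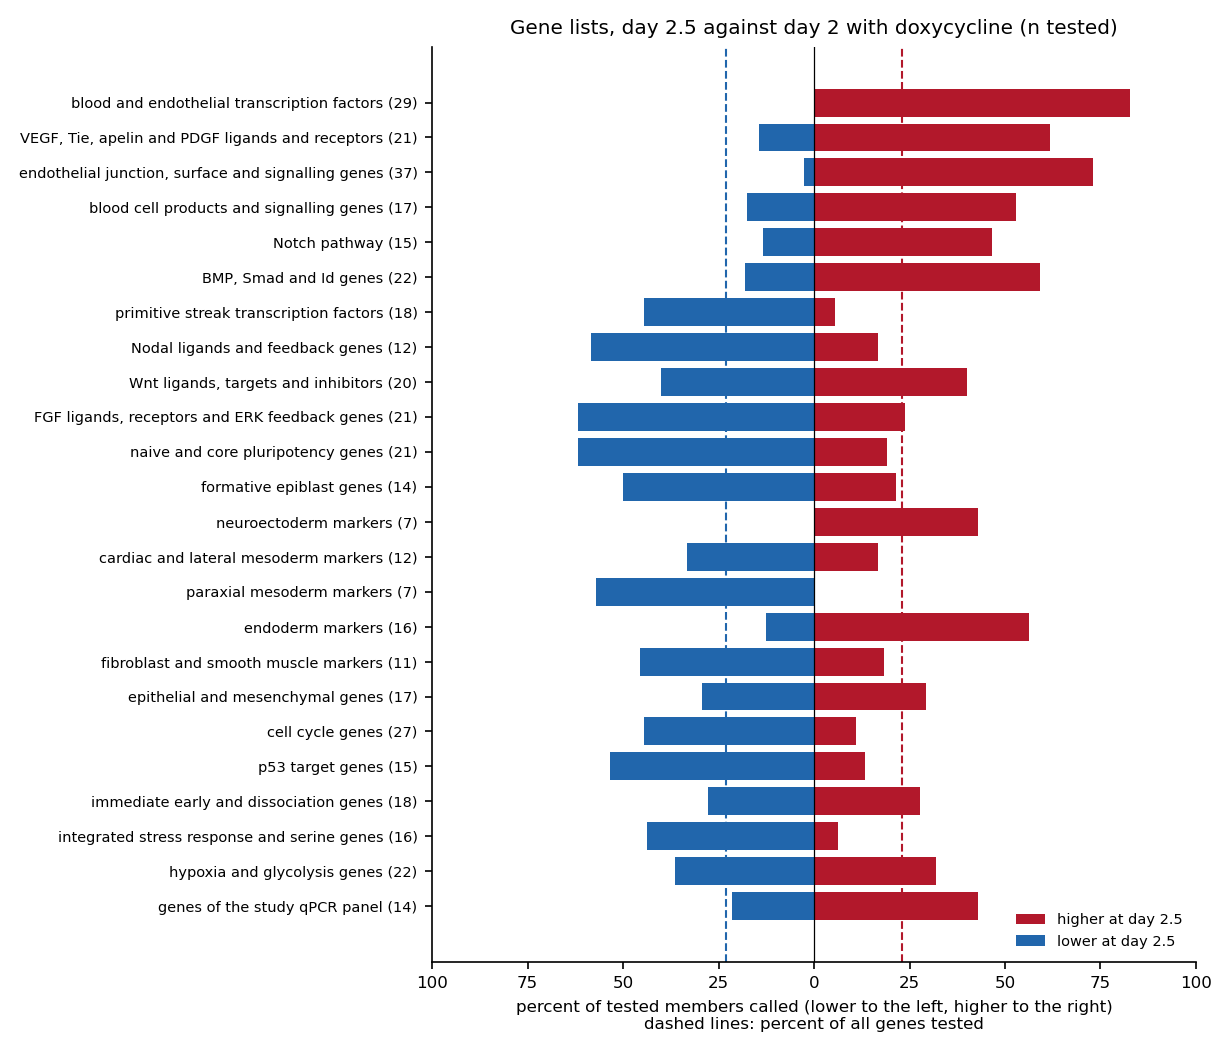
Percent of the tested members of each of 24 gene lists that were higher (to the right) or lower (to the left) at day 2.5 than at day 2 with doxycycline, with the number tested in parentheses. Dashed lines mark the 22.9% and 23.1% of all genes tested. The bar of blood and endothelial transcription factors reaches 82.8% on the right and has no part on the left, and the bar of FGF and ERK feedback genes reaches 61.9% on the left.

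The untreated course shares no library with the induced one, so the 2 sets of calls can be set against each other. Of 3337 genes that rose with doxycycline, 879 also rose without it, which is 26.3% of the induced and 65.5% of the untreated rises. Of 3361 genes that fell with doxycycline, 1102 also fell without it, which is 32.8% of the induced and 73.8% of the untreated falls. Opposite calls were fewer, with 97 genes that rose with and fell without doxycycline and 54 that fell with and rose without it. Kdr, Tek, Nrp1, Cdh5 and Id1 belong to the 97, and Mixl1, T, Apln, Fgf8, Fgf17, Frzb, Tdgf1, Fst and Trh to the 54. These names were chosen after the values were seen.

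By the interaction test, Tal2, Fli1, Erg, Cdh5 and Sox7 led the genes whose change was further upward with doxycycline, and Tgm3, Etv4, Mixl1, Fgf17 and Frzb those whose change was further downward. Tal2 had 0 counts in both untreated day 2.5 libraries and Erg had 1 count over the induced day 2 pair, so no size is given for their difference. Fli1, Cdh5 and Sox7 differed between the courses by 9.88, 7.47 and 6.61 on the log2 scale (edgeR adjusted p = 8.73e-06, 9.35e-07 and 8.72e-05). The size for Fli1 is uncertain, since it lay close to the detection limit in all of these groups except induced day 2.5. Tgm3, Etv4 and Mixl1 differed by -3.36, -3.18 and -3.16 (edgeR adjusted p = 0.000242, 4.19e-09 and 2.26e-09). Of the 127 genes named by rule, 120 passed the test with doxycycline, and 115 of these passed it in each of the 20 alternatives that gave them a value. Gata1 had a value in 19 of them. None of the 120 changed direction.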

How the data were processed

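The series holds bulk RNA-seq libraries of mouse embryoid bodies. The values are whole read counts for each gene in 1 table deposited by the authors. TopHat, HTSeq and DESeq2 are named together with the build mm10, per the submitters' processing notes, without versions or roles. No source used here states the annotation, the strand setting or the treatment of reads with several matches, so antisense partners, overlapping genes and near-identical copies may share reads. The table has 23429 entries. All 92 spike-in rows were at 0 and were left out.

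Tests were run on the counts with edgeR 4.0.16 under R 4.3.3. The filterByExpr defaults (10 counts, 15 in total) removed low genes, and TMM scaled the libraries. The robust quasi-likelihood fit used all 10 libraries with a mean for each group, at 5 residual degrees of freedom, and the common biological coefficient of variation was 0.1. The contrasts were day 2.5 against day 2 with and without doxycycline, their interaction, and doxycycline against none at day 2, with Benjamini-Hochberg adjustment over 14548 tested genes and a threshold of 0.05. Log2 fold changes are ± the standard error derived from the F statistic. For genes near the detection limit in a group this value can be smaller than the counting error. A group at 0 counts was given the floor of 3 counts over the group, and 1 to 3 counts gave a ratio with an exact 95% interval. The induced comparison alone was also run on simulated counts with known changes in a small part of the genes. These were drawn without a length trend or an outlying pair of libraries, so the simulation does not cover those features.

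Groups came from the labels. Gene lists (24 lists, 452 genes, 6 of them under an older symbol, 401 tested) and members were chosen with earlier results of these data known. Named by rule were Etv2 and Kdr, all listed blood and endothelial transcription factors, the 10 genes with the largest rise and the 10 with the largest fall, 5 and 5 for the interaction, and up to 4 members of each other list with the smallest adjusted p, or its first 3 members where none was called. The ranked genes had to be called, reach 5 CPM on average in their higher group, show no overlap between groups and carry a named symbol. Other list members named in the text were chosen after their values were seen. Alternatives were other scaling, filters, DESeq2 1.42.0, limma-voom (limma 3.58.1), only the compared groups, thinned counts, removal of length and GC trends, a replicate block, and leaving out each library.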

Additional observations from a re-analysis of the deposited data

Results flagged for a closer look

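The change from day 2 to day 2.5 differed between induced and untreated embryoid bodies, by the interaction test in edgeR at an adjusted p under 0.05, for 82 of the named genes with more than 3 counts in each of the 4 groups. The values are the log2 change with doxycycline minus that without it, and none was weighed for a cause. The size for Fli1 is uncertain, since outside induced day 2.5 it lay close to the detection limit. Further upward with doxycycline were the regulators Fli1 (9.88), Sox7 (6.61), Gata2 (6.14), Cbfa2t3 (5.44), Sox6 (4.73), Nfe2 (4.47), Sox18 (3.29), Tal1 (3.25), Sox17 (3.16), Lmo2 (2.82), Zfpm1 (2.67), Ets1 (2.39), Hhex (2.04), Elk3 (1.41) and Runx1 (1.37). The same direction held for the endothelial and blood genes Cdh5 (7.47), Gpr116 (5.89), Rcsd1 (4.99), Kdr (3.73), Plxnd1 (2.99), Lcp1 (2.53), Arhgdib (2.48), Nrp2 (2.26), Tspan18 (2.09), Flt4 (1.25) and Aplnr (0.945), and for the Notch, BMP and Wnt genes Hey1 (1.86), Notch4 (1.52), Notch1 (1.12), Id4 (1.47), Bambi (1.13), Smad5 (1.04) and Lgr5 (1.61). Other genes with a positive difference were Tmtc2 (3.57), Tbx20 (2.66), Zeb2 (1.73), Egr2 (1.68), Tubb3 (1.3), Col4a2 (1.3), Fn1 (1.24), Sox3 (1.21), Apoe (1.21), Pdk1 (1.11), Eda2r (0.979), Jun (0.865), P4ha1 (0.705), Cdkn1b (0.616) and Hk1 (0.473). Further downward with doxycycline were the streak and signalling genes Mixl1 (-3.16), Mesp1 (-2.27), Lhx1 (-1.66), Otx2 (-1.24), Fgf17 (-2.97), Etv4 (-3.18), Frzb (-2.91), Spry4 (-2.30), Fzd9 (-2.06), Dusp6 (-1.78), Fst (-1.70), Tdgf1 (-1.58), Wnt5a (-1.50), Etv5 (-1.48), Dll3 (-1.47) and Nodal (-0.645). Other genes with a negative difference were Tgm3 (-3.36), Nefl (-2.14), Gbp2 (-1.79), Sox2 (-0.777), Lin28a (-0.616), Pou3f1 (-1.01), Dnmt3b (-0.635), Trh (-1.84), Tagln (-0.673), Myl9 (-0.703), Cnn1 (-0.767), Cldn6 (-0.492), Ccne1 (-0.53), Ccnd1 (-0.507), Cth (-0.796), Psat1 (-0.542), Mthfd2 (-0.854) and Ldha (-0.642).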

How the results depend on the processing

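The counts of genes that rose or fell with doxycycline kept within 1.5 times of 3337 and 3361 under all 20 alternatives (2402 to 3808 and 2324 to 3881). Similar totals did not always hold the same genes. With length and GC trends removed, 3019 of the 3337 rises and 2974 of the 3361 falls stayed called. Only the compared groups gave 2530 higher and 2382 lower, of which 2518 and 2380 were among the main calls. For the untreated course, only the compared groups gave 2299 higher and 2276 lower, and the replicate block with length and GC trends removed gave 2063 and 2387. Leaving out 1 library gave 358 to 2266 higher and 322 to 2536 lower, the fewest without untreated day 2.5 replicate 2. For the interaction, leaving out 1 library gave 559 to 2115 genes further upward and 278 to 1954 further downward, the fewest without untreated day 2 replicate 1 and the most without induced day 2 replicate 2. Genes further downward numbered 1218 with trends removed and 1396 with the replicate block added to that. The cause of these moves was not tested.

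With the replicate block alone the counts were 3410 and 3422 with doxycycline, 1453 and 1641 without it, and 1082 and 859 in the interaction. Induced day 2 and day 2.5 replicates of 1 number deviated together with r = 0.15 across genes, and the labels state no pairing. Of 84 named genes called in the interaction 69 kept the call in every alternative that gave them a value. Those that lost it under at least 1 alternative were Runx1, Nfe2, Tspan18, Lgr5, Tagln, Myl9, Cldn6, Cdkn1b, Ccne1, Ccnd1, Egr2, Cth, Psat1, Hk1 and P4ha1. With 2 libraries a group, genes near the detection limit, such as Msgn1, are the least certain.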
